A study of Homo sapiens with 12 samples.

Results

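The comparison set 3 RNA sequencing libraries labelled as co-cultured TYMS knockout against 3 libraries labelled as co-cultured control. All are labelled A549, an established line from a human lung adenocarcinoma. The members were chosen by their labels and column names alone, and they are 6 of the 12 libraries of the series. The knockout columns are named gTYMS2 and carry the genotype label TYMS KO, made with Cas9 per the series text. The control columns are named gNTC1 and carry the label NTC KO, for a non-targeting control. All 6 libraries share the label of the line, the same culture medium, the label of no treatment and a sampling time of 14 days after transduction. The other 6 libraries are the same 2 genotypes grown alone, 3 of each, and they enter here through the estimate of spread and as a point of comparison. The series text gives parental A549 cells as the partner of the knockout, and says that knockout cells proliferated again beside them. What the control was grown with, and whether partners were separated before RNA was taken, is not given in the sources used here. Each side carries the name of 1 guide, so a guide and a cell population change together between the groups. Whether the partner changes too is not known. The labels do not say whether replicates were separate cultures, and p-values then measure only the spread between these libraries, which may be technical.

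Thymidylate synthase, the product of TYMS, converts dUMP to dTMP with a folate as the carbon donor, and is the only route by which cells make thymidylate from scratch. Cells without it depend on salvage of thymidine by thymidine kinases, and on import of thymidine or nucleotides from outside. When dTTP runs short, replication forks stall, DNA breaks form, and p53 raises its targets, among them CDKN1A, the inhibitor that arrests the cell cycle. Lasting arrest is known to come with secretion of cytokines and chemokines, many of them under the factor NF-κB.

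TYMS lies on the plus strand of GRCh38 chromosome 18, 657604 to 673578 (ENSG00000176890). It stood at 90.5, 94.2 and 95.7 CPM (counts scaled to library size) in replicates 1 to 3 of the labelled control and at 11.4, 11.004 and 10.7 CPM in those of the knockout. Every knockout library lay far below every library labelled control, and the groups did not overlap. The means were 93.4 ± 2.67 and 11.05 ± 0.3601 CPM (SD, n = 3 each; log2 fold change -3.08 with SE 0.12, edgeR adjusted p = 9.53e-10). The exact two-sided permutation p was 0.1, the smallest that 3 against 3 libraries allow. The remaining 921 counts over the 3 knockout libraries cannot be assigned further, since exons of TYMS overlap ENOSF1 and TYMSOS; their source was not tested. The TYMS transcript was thus low in each library labelled knockout.

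The libraries labelled control go against the A549 label at other genes. A549 is known for a homozygous loss at 9p21, which removes CDKN2A, the gene of the p16 and ARF tumour suppressors, and MTAP, an enzyme that salvages methylthioadenosine. CDKN2A (chromosome 9, 21967753 to 21995301) stood at 54.7, 79.5 and 83.2 CPM in the labelled control and at 0, 0.119 and 0 CPM in the knockout. MTAP (chromosome 9, 21802543 to 21937651) stood at 65.3, 60.1 and 53.9 CPM and at 0.302, 0.626 and 0.485 CPM in the same order. The 3 libraries labelled control thus all held both transcripts, and the 3 knockout libraries held 4 CDKN2A counts in all, a ratio of 1559 (95% counting interval 609 to 5724). CDKN2B, the p15 gene beside them, had 159 counts in the labelled control and 0 in the knockout, at least 20.8-fold lower. CDKN2B-AS1, the antisense gene that spans CDKN2B and shares exon positions with CDKN2A, was the member of this list that rose, from 1.101 ± 0.131 to 2.76 ± 0.102 CPM (SD, n = 3 each; log2 fold change 1.33 with SE 0.25, edgeR adjusted p = 6.93e-04). The list of 4 therefore had 3 members lower and 1 higher; their median on the log2 scale was -7.796, or -5.66 with the gene at 0 set to its bound.

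SMARCA4, the ATPase of SWI/SNF chromatin remodelling that A549 is known to carry in truncated form, showed the same division. It stood at 177, 159 and 172 CPM in the labelled control and at 13.02, 10.9 and 12.9 CPM in the knockout, with no overlap (log2 fold change -3.79 with SE 0.14, edgeR adjusted p = 9.53e-10). These 3 genes had the same division in the libraries grown alone, where CDKN2A stood at 99.3 ± 22.9 CPM in the labelled control and had 0 counts in the knockout, MTAP stood at 59.5 ± 18.2 and 0.582 ± 0.0568 CPM and SMARCA4 at 188 ± 22.5 and 13.5 ± 0.0492 CPM in the labelled control and the knockout (SD, n = 3 each). What the TYMS guide did and any other difference between the 2 cell populations cannot be told apart in this design, and every direction below is read against libraries labelled control that hold these transcripts. Parental A549 cells by themselves were not analysed here.

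**Figure D1:**
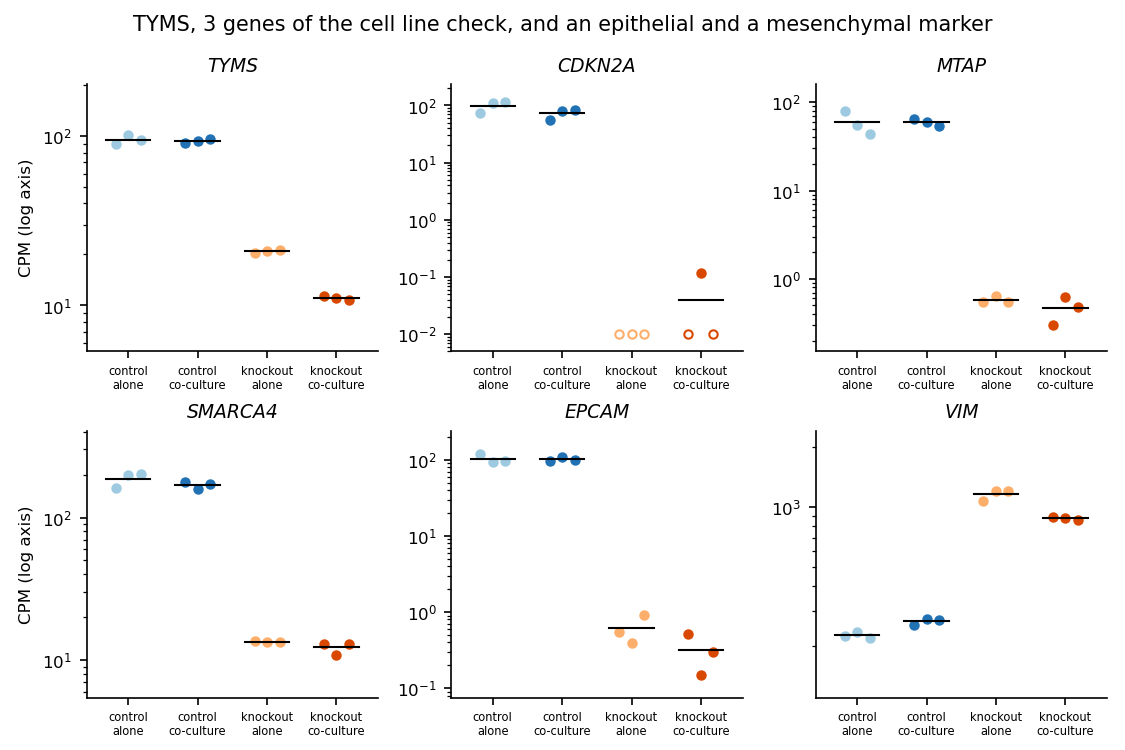
CPM on a log axis in each library of the 4 groups (points) with the group mean (line) for TYMS, CDKN2A, MTAP, SMARCA4, EPCAM and VIM; open circles mark libraries at or below 0.01 CPM, drawn there. In co-culture CDKN2A averages 72.5 CPM in the labelled control and 0.0398 CPM in the knockout (group means).

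Library totals ran from 16500631 to 26391593 counts in the labelled control and from 23277949 to 35723762 in the knockout, so a gene at 1 CPM had from 16.8 to 33.5 counts. Pearson correlations of log2 CPM, across genes, were 0.984 to 0.989 between control replicates, 0.961 to 0.989 between knockout replicates and 0.862 to 0.893 between the groups. Libraries of both groups varied along transcript GC content. The rank correlation of the deviation from the group mean with GC was 0.345, 0.735 and -0.753 in knockout replicates 1 to 3. It was -0.483, -0.191 and 0.580 in those of the labelled control. Knockout replicate 3 had correlations of 0.961 and 0.979 with the other knockout libraries, and counts of list members are also given without it. The log2 fold changes themselves had a rank correlation of -0.106 with GC across genes. Mitochondrial transcripts took 2.28% to 3.74% of the counts.

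Of 16768 genes tested, 8276 passed an adjusted p of 0.05 in edgeR, which is 49.4% of all genes. In the knockout 4042 genes (24.1%) were higher and 4234 (25.3%) were lower. A change of at least 2-fold was seen in 2717 of the higher and 2542 of the lower genes, and the median of all genes was -0.02 on the log2 scale. Without knockout replicate 3 there were 8892 calls, 3878 higher and 5014 lower. At this background a list whose shares of called members lie near 24.1% and 25.3% resembles any other set of genes, and lists are read below beside these shares. In bulk RNA, fewer cells of a type and less RNA per cell cannot be told apart.

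**Figure D2:**
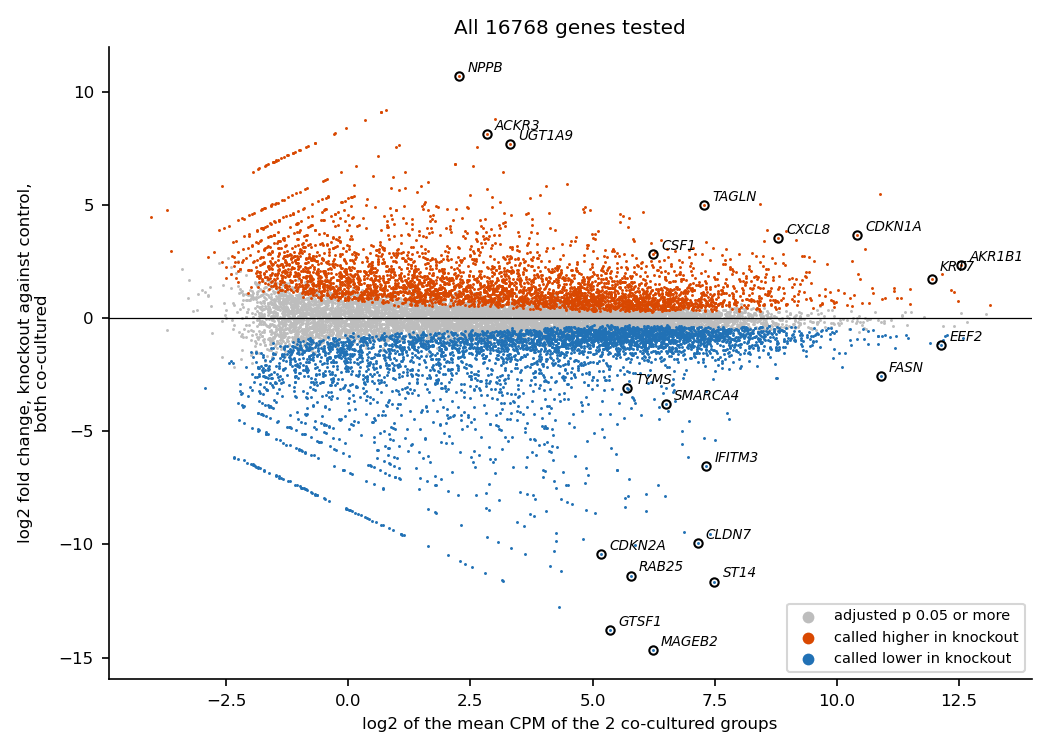
The log2 fold change of knockout against control in co-culture (y axis) over the log2 mean CPM of both groups (x axis) for each gene tested, coloured by call (orange higher, blue lower, grey not called), with 20 genes labelled. Called genes lie on both sides, and the lower side reaches further than the higher side, down to MAGEB2 and GTSF1.

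**Figure D3:**
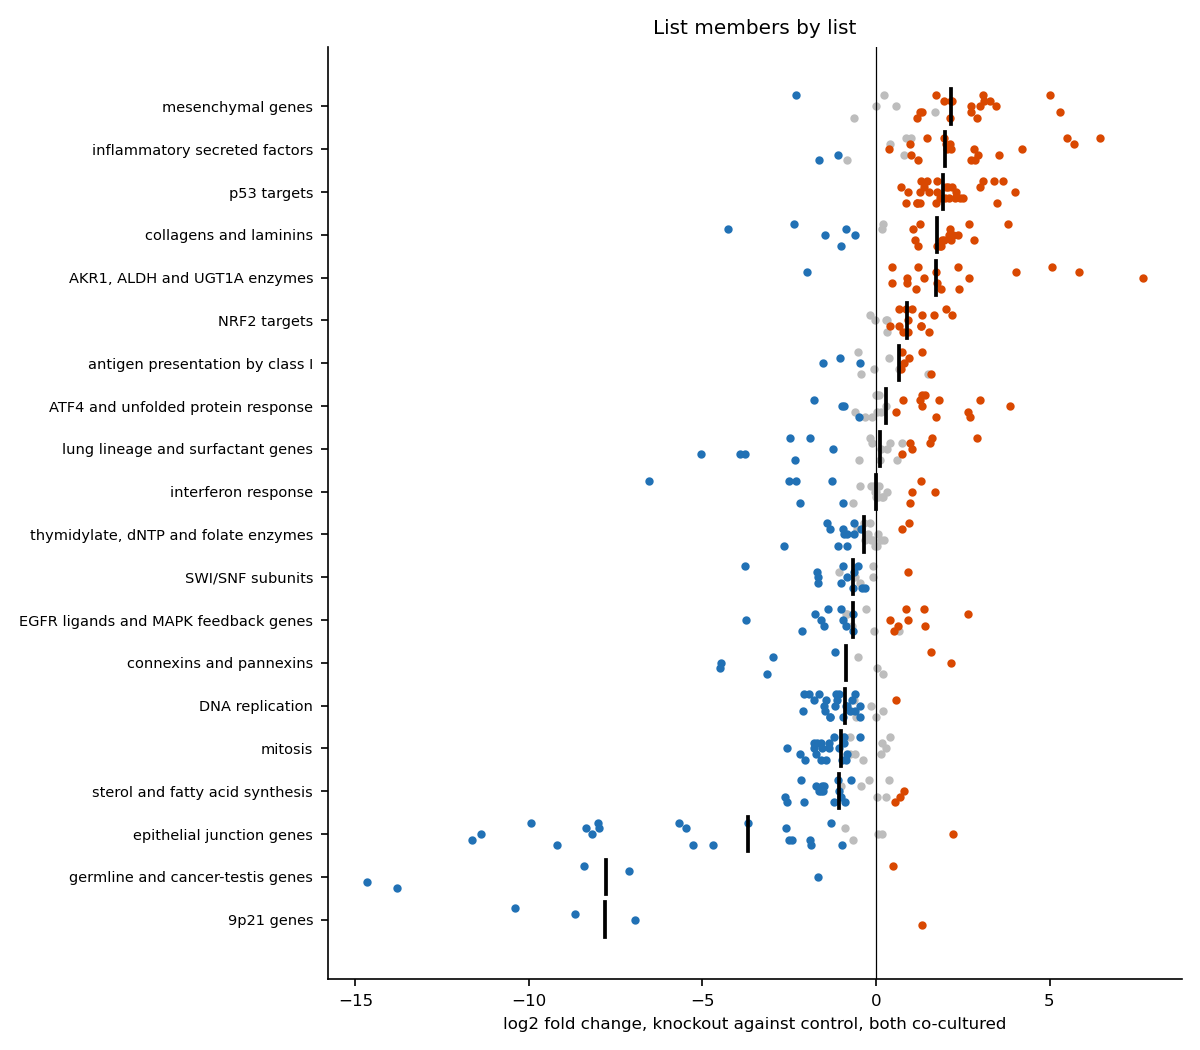
The log2 fold change of each tested member of 20 gene lists (points; orange called higher, blue called lower, grey not called) with the list median (black bar). Medians run from 2.15 for mesenchymal genes to -7.796 for the 9p21 genes.

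Without knockout replicate 3, the lists not given that way below had 2 higher and 10 lower for the thymidylate and folate enzymes, 12 higher and 4 lower for the ATF4 genes, 8 higher and 13 lower for the EGFR and MAPK genes, 4 higher and 7 lower for the interferon genes, 7 higher and 3 lower for class I presentation, 15 higher and 0 lower for the NRF2 targets, 16 higher and 1 lower for the AKR1, ALDH and UGT1A enzymes. They had 1 higher and 21 lower for the epithelial junction genes, 18 higher and 1 lower for the mesenchymal genes, 17 higher and 6 lower for collagens and laminins, 2 higher and 5 lower for connexins, 3 higher and 19 lower for sterol and fatty acid synthesis, 1 higher and 14 lower for SWI/SNF subunits, 1 higher and 5 lower for germline genes and 8 higher and 8 lower for the lung genes.

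More enzymes that make and salvage thymidylate and other DNA precursors fell than rose. Of 25 members tested besides TYMS, 11 fell, 2 rose and 12 did not pass, with a median of -0.35. The shares over all genes were 25.3% lower and 24.1% higher. TK1, the cytosolic thymidine kinase of dividing cells and the entry to thymidine salvage, stood at 582, 585 and 708 CPM in the labelled control and 247, 286 and 172 CPM in the knockout. All 3 knockout libraries lay below the 3 libraries labelled control (log2 fold change -1.41 with SE 0.25, edgeR adjusted p = 4.06e-04). TK2, the mitochondrial thymidine kinase, was 1 of the members that rose, from 29.6 ± 0.464 to 49.96 ± 6.001 CPM (SD, n = 3 each; log2 fold change 0.75 with SE 0.13, edgeR adjusted p = 3.04e-04).

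The other member that rose was CTPS1, which makes CTP from UTP, at 103, 97.2 and 107 CPM in the labelled control and 198, 201 and 191 CPM in the knockout (log2 fold change 0.94 with SE 0.11, edgeR adjusted p = 1.43e-05). The groups did not overlap for CTPS1. SLC29A2, an equilibrative transporter that carries nucleosides such as thymidine across the membrane, had the largest fall of the list, from 34.9, 38.3 and 48.8 to 6.73, 7.93 and 4.66 CPM (log2 fold change -2.66 with SE 0.23, edgeR adjusted p = 9.10e-07). Its relative SLC29A1 did not pass (132 ± 9.32 against 105 ± 15.9 CPM, SD, n = 3 each; edgeR adjusted p = 0.136; 0.0471 without knockout replicate 2). On the folate side, the carrier SLC19A1 fell with a log2 fold change of -1.33, the serine hydroxymethyltransferases SHMT1 and SHMT2 with -0.95 and -0.93, and MTHFD1L with -0.85 (edgeR adjusted p = 1.32e-04, 3.83e-04, 0.00462 and 1.04e-04). DTYMK, which phosphorylates dTMP, was at the threshold, with a log2 fold change of -0.62 (edgeR adjusted p = 0.0445); its call was lost without any 1 of control replicates 1, 2 and 3 and knockout replicates 1 and 3 (edgeR adjusted p = 0.0805, 0.081, 0.0839, 0.0654 and 0.12). The ribonucleotide reductase subunits RRM1 and RRM2 did not pass, with log2 fold changes of -0.23 and -0.073 (edgeR adjusted p = 0.558 and 0.695).

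Genes of DNA replication fell in 23 of 30 members and rose in 1, against 25.3% and 24.1% of all genes. The other 6 did not pass, and the median was -0.904. Without knockout replicate 3, 26 were lower. All 6 subunits of the MCM2-7 helicase fell, which unwinds DNA at the fork: MCM5 (chromosome 22, 35400063 to 35425430) stood at 413, 403 and 462 CPM in the labelled control and at 104, 117 and 76.2 CPM in the knockout. Replicate 3 was the lowest of the knockout libraries, and all 3 lay well below the labelled controls (log2 fold change -2.11 with SE 0.21, edgeR adjusted p = 3.47e-06). MCM2, MCM3 and MCM7 had log2 fold changes of -1.93, -1.78 and -1.65, and MCM4 and MCM6 of -0.83 and -1.32. CDT1, which loads the helicase onto origins, fell from 307 ± 50.7 to 72.4 ± 21.4 CPM (SD, n = 3 each; log2 fold change -2.09 with SE 0.25, edgeR adjusted p = 1.69e-05). CHAF1A, a subunit of the chromatin assembly factor that follows the fork, fell from 109 ± 12.6 to 38.9 ± 3.48 CPM (SD, n = 3 each; log2 fold change -1.48 with SE 0.15, edgeR adjusted p = 2.89e-06), and its exons overlap UBXN6.

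The catalytic subunits of the leading and lagging strand polymerases, POLE and POLD1, had log2 fold changes of -1.07 and -0.94. PCNA, the sliding clamp, was the member that rose, from 173, 185 and 174 to 277, 222 and 303 CPM (log2 fold change 0.59 with SE 0.16, edgeR adjusted p = 0.00829). The clamp is known both as a replication factor and as a target of p53. The members that did not pass were ORC6, GINS4, RFC3, RFC4, POLA2 and POLE2.

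Mitotic genes were lower too. Of 30 members, 21 fell, against 25.3% of all genes, and the other 9 did not pass, with a median of -1.01. Without knockout replicate 3, 24 fell and the median was -1.42. Many mitotic promoters are known to hold the cell cycle homology region, a short element that the DREAM complex and B-MYB-containing complexes bind, and through which p53 and CDKN1A lower transcription. Its letters, TTTGAA, were searched on both strands of the RefSeq promoter windows (GRCh38.p14, 250 bases before to 50 after each start). A match stood in 19 of the 25 mitosis genes that had a window (76.0%), in 0 of 27 DNA replication genes, and in 4961 of all 27305 genes with a window (18.2%). The part of the window around the match, ending before the start site, is shown for 5 members whose promoters hold it, each of them lower in the knockout, with the match in capitals and the window read 5′ to 3′ along the gene.
CDC20 (chr1:43358898-43358939, plus strand): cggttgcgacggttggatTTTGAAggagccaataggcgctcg
PLK1 (chr16:23678842-23678883, plus strand): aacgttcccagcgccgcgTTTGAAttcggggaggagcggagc
CDCA8 (chr1:37692475-37692515, plus strand): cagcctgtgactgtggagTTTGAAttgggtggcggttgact
BUB1B (chr15:40161028-40161068, plus strand): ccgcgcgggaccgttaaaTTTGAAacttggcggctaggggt
PRC1 (chr15:90994536-90994573, minus strand): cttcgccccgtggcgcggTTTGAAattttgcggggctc
The first base of the match lies 65 bases before the start of CDC20, 29 before that of PLK1, 23 before those of CDCA8 and BUB1B, and 20 before that of PRC1. CDC20 holds a second match elsewhere in its window. These are matches of letters and not measured binding, and they were not counted apart for members that fell and members that did not pass.

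CDC20, which activates the anaphase-promoting complex, stood at 431, 415 and 424 CPM in the labelled control and at 96.4, 109 and 76.2 CPM in the knockout. The control libraries lay close together, and the highest knockout library was far below them (log2 fold change -2.18 with SE 0.21, edgeR adjusted p = 2.17e-06). PLK1, a kinase needed for entry into and passage through mitosis, stood at 304, 289 and 305 and 92.1, 109 and 70.1 CPM in the same order (log2 fold change -1.73 with SE 0.199, edgeR adjusted p = 1.29e-05). BUB1B, a kinase of the spindle checkpoint, had the largest fall of the list, from 29.5, 24.5 and 17.6 to 3.28, 2.21 and 6.53 CPM (log2 fold change -2.58 with SE 0.37, edgeR adjusted p = 8.15e-05). For BUB1B replicate 3 of the knockout stood at the other end from replicate 2, and the groups still did not overlap. CDCA8, of the chromosomal passenger complex, fell from 85.6 ± 16.1 to 24.8 ± 0.487 CPM and PRC1, which bundles spindle microtubules, from 14.4 ± 2.09 to 7.88 ± 1.45 CPM (SD, n = 3 each; log2 fold change -1.79 and -0.87, edgeR adjusted p = 2.24e-06 and 0.00267).

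The 3 members with the smallest p were KIF2C, UBE2C and KIF20A. KIF2C, a kinesin that depolymerises microtubules, stood at 159, 129 and 124 and 43.7, 39.004 and 36.6 CPM in the labelled control and the knockout (log2 fold change -1.79 with SE 0.15, edgeR adjusted p = 8.12e-07). UBE2C, the ubiquitin-conjugating enzyme of the anaphase-promoting complex, stood at 145, 123 and 133 and 50.7, 50.5 and 45.6 CPM (log2 fold change -1.45 with SE 0.13, edgeR adjusted p = 1.26e-06). KIF20A, a kinesin of cytokinesis, stood at 90.6, 70.3 and 62.98 and 23.97, 22.9 and 27.5 CPM (log2 fold change -1.59 with SE 0.15, edgeR adjusted p = 1.92e-06). Groups did not overlap for these 3 genes, and exons of KIF20A overlap BRD8 and CDC23. Members that did not pass included CDK1, at 19.3 ± 3.97 against 23.5 ± 9.21 CPM, AURKA, at 55.6 ± 12.04 against 43.04 ± 5.98 CPM, and TOP2A, at 44.1 ± 11.2 against 26.3 ± 18.95 CPM (SD, n = 3 each; edgeR adjusted p = 0.468, 0.104 and 0.164). AURKA was called without control replicate 3 and TOP2A without knockout replicate 3 (edgeR adjusted p = 0.0228 and 0.00113).

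All 30 p53 targets tested were higher in the knockout, against 24.1% of all genes, with log2 fold changes from 0.72 to 4.003 and a median of 1.92. Without knockout replicate 3, 28 of the 30 were called higher. The targets that restrain the cell cycle were led by CDKN1A (chromosome 6, 36676460 to 36687339), the gene of p21, at 183, 188 and 224 CPM in the labelled control and 2695, 2946 and 1916 CPM in the knockout. Replicate 3 was the lowest of the knockout libraries and still lay far above each labelled control (log2 fold change 3.67 with SE 0.22, edgeR adjusted p = 3.72e-08); exons of CDKN1A overlap DINOL. BTG2, GADD45A and PLK2 had log2 fold changes of 2.32, 2.29 and 1.99.

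Among targets that act in cell death, TP53I3 (chromosome 2, 24077433 to 24085861), an oxidoreductase, stood at 59.6, 58.3 and 72.97 and 715, 765 and 530.1 CPM (log2 fold change 3.396 with SE 0.198, edgeR adjusted p = 2.92e-08), and its exons overlap FAM228B. FAS, the death receptor, whose exons overlap ACTA2, rose from 0.989 ± 0.246 to 11.3 ± 5.98 CPM, and EDA2R, a receptor of the TNF receptor family, from 2.05 ± 0.296 to 32.8 ± 8.96 CPM (SD, n = 3 each; log2 fold change 3.498 and 4.003, edgeR adjusted p = 4.28e-05 and 6.55e-08). The BH3 protein gene BBC3 and the pore-forming BAX had log2 fold changes of 1.52 and 1.85 (edgeR adjusted p = 9.97e-05 and 1.23e-05). RPS27L, a p53-induced relative of a ribosomal protein, stood at 47.9, 44.4 and 42.9 and 391, 358 and 393 CPM, with the smallest p of the list (log2 fold change 3.08 with SE 0.16, edgeR adjusted p = 9.96e-09). MDM2, which marks p53 for degradation and is itself a target, rose from 15.1 ± 3.43 to 61.2 ± 45.4 CPM (SD, n = 3 each; log2 fold change 2.02 with SE 0.47, edgeR adjusted p = 0.00323). Targets with a role in repair and nucleotide supply were included: RRM2B, the p53-induced subunit of ribonucleotide reductase, rose with a log2 fold change of 2.09, and the damage recognition genes DDB2 and XPC with 1.75 and 1.19 (edgeR adjusted p = 0.00469, 1.16e-06 and 3.14e-06). RRM2B stood at 5.17, 3.0997 and 3.02 CPM in the labelled control and 10.05, 5.76 and 31.98 CPM in the knockout. The log2 fold changes of MDM2 and RRM2B without knockout replicate 3 were 1.24 and 1.08. CDKN2A, whose ARF product restrains MDM2, was present in the labelled control and near absent in the knockout, as given above; its part in these values was not tested.

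**Figure D4:**
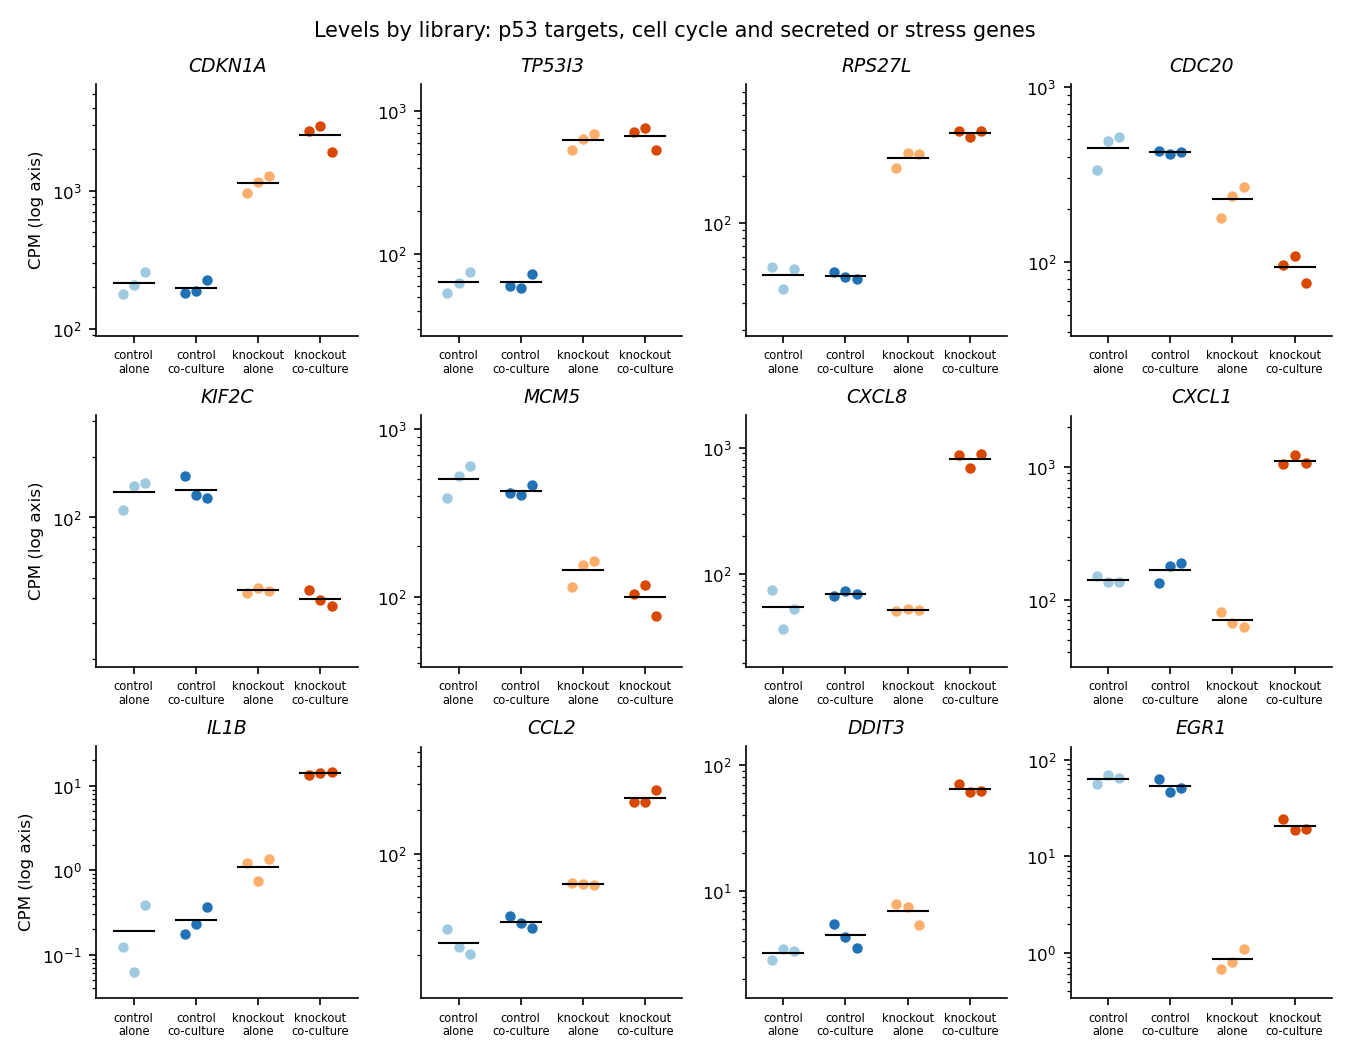
CPM on a log axis in each library of the 4 groups (points) with the group mean (line) for 12 genes: p53 targets, cell cycle genes, chemokines and cytokines, DDIT3 and EGR1. CXCL8 is near 52.3 CPM in the knockout alone and 818 CPM in the co-cultured knockout.

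Secreted inflammatory factors were higher in the knockout in 19 of the 26 members tested and lower in 2, against 24.1% and 25.3% of all genes. Another 5 were not called, the median was 1.995, and 4 of the 30 listed were too low to test. Without knockout replicate 3 the higher members numbered 18. The CXC chemokines that attract neutrophils form a cluster on chromosome 4 and are textbook targets of NF-κB. The κB letters GGAATTTCC were searched on both strands of the same RefSeq windows. They stood in 6 of the 19 inflammatory genes that had a window (31.6%) and in 153 of all 27305 genes with a window (0.56%). The 6 are the chemokine genes below, shown because 5 of them rose and the sixth did not; the match is in capitals, in a window that ends before the start site.
CXCL1 (chr4:73869290-73869348, plus strand): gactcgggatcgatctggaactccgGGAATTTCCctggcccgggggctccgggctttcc
CXCL2 (chr4:74099239-74099297, minus strand): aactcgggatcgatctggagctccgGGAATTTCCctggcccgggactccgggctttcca
CXCL3 (chr4:74038734-74038792, minus strand): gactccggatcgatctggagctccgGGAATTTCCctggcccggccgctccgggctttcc
CXCL5 (chr4:73998734-73998792, minus strand): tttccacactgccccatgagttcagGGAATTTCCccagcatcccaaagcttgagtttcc
CXCL6 (chr4:73836564-73836622, plus strand): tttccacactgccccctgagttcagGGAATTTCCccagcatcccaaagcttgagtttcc
CXCL8 (chr4:73740453-73740511, plus strand): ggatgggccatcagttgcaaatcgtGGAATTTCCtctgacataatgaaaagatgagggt
The match begins 77 to 91 bases before the start site in all 6. The windows of CXCL1, CXCL2 and CXCL3 resemble each other, as do those of CXCL5 and CXCL6. Their exons are also alike, so reads may be split among CXCL1, CXCL2 and CXCL3, and their separate values are uncertain.

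CXCL8, the gene of interleukin-8, stood at 66.7, 73.5 and 69.5 CPM in the labelled control and 868, 688 and 897 CPM in the knockout. The lowest knockout library was far above the highest labelled control (log2 fold change 3.55 with SE 0.22, edgeR adjusted p = 5.78e-08). CXCL1 stood at 133, 179.7 and 190.5 and 1055, 1228 and 1074 CPM (log2 fold change 2.74 with SE 0.17, edgeR adjusted p = 4.69e-08), and CXCL5 at 240.5, 289 and 249 and 946, 844 and 1398 CPM (log2 fold change 2.03 with SE 0.24, edgeR adjusted p = 1.33e-05). CXCL2 and CXCL3 had log2 fold changes of 1.96 and 2.03 (edgeR adjusted p = 1.30e-06 and 2.63e-07). CXCL6 was the exception: it fell from 2.29 ± 0.807 to 1.06 ± 0.2899 CPM (SD, n = 3 each; log2 fold change -1.11 with SE 0.37, edgeR adjusted p = 0.0234). The call of CXCL6 was lost without control replicate 2 or 3 or knockout replicate 1 (edgeR adjusted p = 0.0539, 0.104 and 0.0887).

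Of the cytokines, IL6 stood at 0.594, 0.727 and 1.43 CPM in the labelled control and 17.3, 18.4 and 15.6 CPM in the knockout (log2 fold change 4.19 with SE 0.35, edgeR adjusted p = 7.76e-07). IL1B had 18 counts over the 3 labelled controls and averaged 14.002 ± 0.5302 CPM (SD, n = 3) in the knockout, a ratio of 52.6 (95% counting interval 33.1 to 89.03; edgeR adjusted p = 1.57e-07). IL1A had 1 count in the labelled control and 143 in the knockout, a ratio of 116 (95% counting interval 20.4 to 4596; edgeR adjusted p = 7.93e-04). The leukaemia inhibitory factor LIF and IL11, both of the IL-6 family, had log2 fold changes of 1.48 and 2.14 (edgeR adjusted p = 9.21e-06 and 3.68e-06). Among the members with the smallest p were CSF1 and CCL2. CSF1, the growth factor of macrophages, stood at 15.2, 20.7 and 19.7 and 129.5, 151 and 115 CPM (log2 fold change 2.83 with SE 0.15, edgeR adjusted p = 1.58e-08), and CCL2, which attracts monocytes, at 37.05, 33.1 and 31.1 and 228, 226 and 273 CPM (log2 fold change 2.84 with SE 0.16, edgeR adjusted p = 2.14e-08). Groups did not overlap for either gene. The other member that fell was MMP9, at 0.591 ± 0.266 against 0.184 ± 0.0789 CPM (SD, n = 3 each; log2 fold change -1.64 with SE 0.496, edgeR adjusted p = 0.015), a call lost without control replicate 3 (edgeR adjusted p = 0.0873). TNF was too low to test. PTGS2, the inducible cyclooxygenase, did not pass (41.7 ± 4.71 against 23.5 ± 13.3 CPM, SD, n = 3 each; edgeR adjusted p = 0.0653). It was called lower without knockout replicate 3 (edgeR adjusted p = 5.31e-04), and also with GC offsets and with DESeq2.

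Genes of the ATF4 and unfolded protein response were mixed, with 12 of 25 members higher, 4 lower (2 without control replicate 3) and a median of 0.28. The shares over all genes were 24.1% higher and 25.3% lower. DDIT3, the gene of the stress factor CHOP, stood at 5.46, 4.36 and 3.55 CPM in the labelled control and 70.2, 60.9 and 62.7 CPM in the knockout. The groups lay far apart, with each knockout library at many times the highest labelled control (log2 fold change 3.86 with SE 0.21, edgeR adjusted p = 1.73e-08), and exons of DDIT3 overlap MARS1 and MBD6. STC2, a secreted glycoprotein, stood at 32.2, 34.8 and 32.3 and 212, 227 and 214 CPM (log2 fold change 2.71 with SE 0.13, edgeR adjusted p = 4.08e-09), and VLDLR, a lipoprotein receptor, at 3.38, 4.25 and 3.46 and 26.1, 23.1 and 39.5 CPM (log2 fold change 2.99 with SE 0.26, edgeR adjusted p = 9.45e-07). ATF3 and NUPR1, a stress-induced factor and a nuclear stress protein, had log2 fold changes of 1.81 and 2.64 (edgeR adjusted p = 1.23e-06 and 6.23e-06). ATF4 itself did not pass, at 291 ± 12.4 and 292 ± 28.7 CPM (SD, n = 3 each; edgeR adjusted p = 0.98). The chaperone HSPA5 did not pass either (edgeR adjusted p = 0.126), the serine synthesis enzyme PHGDH fell with a log2 fold change of -1.798, and the amino acid carriers SLC7A5 and SLC3A2 rose with 1.33 and 1.26 (edgeR adjusted p = 1.35e-05, 1.38e-04 and 9.94e-05).

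Among EGFR ligands and feedback genes of the MAPK pathway, 11 of 25 fell and 8 rose, with a median of -0.68. Over all genes 25.3% fell and 24.1% rose. The ligand AREG fell from 63.5 ± 1.39 to 31.3 ± 3.64 CPM and the ligand TGFA rose from 29.6 ± 4.196 to 78.9 ± 12.6 CPM (SD, n = 3 each; log2 fold change -1.02 and 1.41, edgeR adjusted p = 4.11e-05 and 9.11e-06). The receptor EGFR rose with a log2 fold change of 1.38 (edgeR adjusted p = 0.00107). Of the dual-specificity phosphatases, DUSP6, which acts on ERK in the cytoplasm, stood at 74.7, 64.02 and 56.9 and 15.5, 12.2 and 17.1 CPM (log2 fold change -2.13 with SE 0.17, edgeR adjusted p = 3.85e-07), while DUSP1, a nuclear phosphatase of the stress kinases, stood at 50.6, 68.3 and 68.9 and 400.3, 444 and 324 CPM (log2 fold change 2.64 with SE 0.18, edgeR adjusted p = 1.18e-07). The 2 phosphatases thus moved in opposite directions, each without overlap. PHLDA1, another feedback gene, stood at 324, 338 and 323 and 113, 118 and 117 CPM (log2 fold change -1.4997 with SE 0.12, edgeR adjusted p = 4.10e-07), and the ETS factors ETV4 and ETV5 and the inhibitor SPRY4 fell with log2 fold changes of -1.74, -0.95 and -1.58 (edgeR adjusted p = 3.66e-06, 3.90e-05 and 1.25e-06).

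The interferon list was close to the background, with 4 of 23 members tested higher, 6 lower, a median of -0.006 and 7 of 30 not tested. Its largest change was in IFITM3, which restricts the entry of viruses, at 329.5, 289 and 337 CPM in the labelled control and 3.54, 4.205 and 2.43 CPM in the knockout (log2 fold change -6.55 with SE 0.26, edgeR adjusted p = 1.74e-09). The groups lay far apart, but IFITM genes are near copies of each other, so the value is uncertain. ISG15, a ubiquitin-like protein, fell from 170.2 ± 33.97 to 34.3 ± 9.59 CPM, and BST2, which tethers virus particles, from 2.12 ± 0.413 to 0.363 ± 0.128 CPM (SD, n = 3 each; log2 fold change -2.31 and -2.51, edgeR adjusted p = 1.59e-05 and 6.48e-05). IFI6, at 50.3 ± 12.8 and 50.8 ± 14.5 CPM, and MX1, at 5.76 ± 1.31 and 5.24 ± 0.658 CPM, did not pass (SD, n = 3 each; edgeR adjusted p = 0.971 and 0.632).

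In antigen presentation by class I, 6 of 15 members rose and 3 fell, against 24.1% and 25.3% of all genes. The light chain gene B2M rose, from 196, 196 and 203 to 509.6, 499 and 478 CPM (log2 fold change 1.32 with SE 0.14, edgeR adjusted p = 4.32e-06), and the heavy chain gene HLA-C fell, from 649.6, 708 and 805 to 263, 297 and 186 CPM (log2 fold change -1.54 with SE 0.23, edgeR adjusted p = 1.06e-04). The groups did not overlap for either gene. HLA genes share sequence with each other and differ between people and lines, so reads may be assigned unequally, and the heavy chain values are uncertain. PSMB8, a subunit of the immunoproteasome that cuts peptides for presentation, rose from 23.2 ± 3.65 to 70.1 ± 16.3 CPM (SD, n = 3 each; log2 fold change 1.596 with SE 0.23, edgeR adjusted p = 9.64e-05); its exons overlap PSMB9.

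Targets of NRF2, the factor that A549 is known to keep active through loss of KEAP1, rose in 15 of 20 members, against 24.1% of all genes. The other 5 did not pass, and the median was 0.89. HMOX1, heme oxygenase, stood at 79.6, 82.97 and 88.1 and 392, 449.8 and 298 CPM (log2 fold change 2.18 with SE 0.19, edgeR adjusted p = 8.99e-07). ABCC3, an export pump for conjugates, stood at 219, 282 and 312 and 689, 755 and 612 CPM (log2 fold change 1.34 with SE 0.16, edgeR adjusted p = 2.19e-05), and SRXN1, sulfiredoxin, at 16.98, 39.6 and 42.97 and 153, 154 and 100.2 CPM (log2 fold change 2.03 with SE 0.28, edgeR adjusted p = 6.64e-05). The lowest knockout library was above the highest labelled control for each of these. NQO1, the quinone reductase, was abundant in both groups and rose from 1131 ± 104 to 1797 ± 207 CPM (SD, n = 3 each; log2 fold change 0.67 with SE 0.17, edgeR adjusted p = 0.00515). GPX2, TKT, PGD, GCLC and ME1 did not pass.

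A chosen list covered enzymes from the AKR1, ALDH and UGT1A families and related enzymes, several of them NRF2 targets too. Of 18 members tested, 17 rose and 1 fell, against 24.1% and 25.3% of all genes, with a median of 1.74. AKR1B1, aldose reductase, had the highest gain in CPM of the called genes with a symbol and no overlap between the groups. It stood at 1567, 1917 and 2398 CPM in the labelled control and 10228, 12301 and 7606 CPM in the knockout (log2 fold change 2.36 with SE 0.23, edgeR adjusted p = 3.49e-06). AKR1C3, which reduces steroids and prostaglandins, stood at 275, 282 and 309 and 1531, 1571 and 1422 CPM (log2 fold change 2.39 with SE 0.13, edgeR adjusted p = 1.86e-08); AKR1C1 and AKR1C2 are near copies of each other and their split is uncertain. CYP4F11, a fatty acid hydroxylase, rose from 0.558 ± 0.266 to 32.6 ± 0.905 CPM (SD, n = 3 each; log2 fold change 5.84 with SE 0.31, edgeR adjusted p = 1.38e-08). UGT1A9, which couples drugs and bilirubin-like compounds to glucuronic acid, had 6 counts in the labelled control and averaged 19.7 ± 6.08 CPM (SD, n = 3) in the knockout, a ratio of 217 (95% counting interval 99.7 to 593; edgeR adjusted p = 1.92e-08). UGT1A7 had a ratio of 206 (95% counting interval 80.2 to 758); the UGT1A genes share their last exons, so these values are uncertain. The member that fell was ALDH1A3, an enzyme of retinoic acid synthesis, with a log2 fold change of -1.99 (edgeR adjusted p = 8.67e-07). The list does not stand for the whole families. Outside it, AKR1A1, ALDH6A1, ALDH18A1 and ALDH7A1 fell with log2 fold changes of -0.93, -0.75, -0.38 and -0.35 (edgeR adjusted p = 0.00218, 0.0221, 0.0285 and 0.0317), while ALDH2 rose with 1.03 (edgeR adjusted p = 1.15e-04). The calls of ALDH6A1, ALDH18A1 and ALDH7A1 were lost without control replicate 1 (edgeR adjusted p = 0.0985, 0.122 and 0.128) and without some of the other libraries. Exons of ALDH6A1 overlap BBOF1, and those of ALDH2 overlap another annotated gene.

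Epithelial junction genes made up the list with the most members near absent in the knockout. Of 25 tested, 20 were lower and 1 was higher, against 25.3% and 24.1% of all genes, and the median was -3.68. ST14 (chromosome 11, 130159562 to 130210376), the membrane protease matriptase, stood at 364, 345 and 370.1 CPM in the labelled control, and its 9 counts over the knockout libraries make a ratio of 3333 (95% counting interval 1756 to 7290.3; edgeR adjusted p = 3.18e-10). CLDN7, a claudin of tight junctions, stood at 291, 263 and 298 CPM in the labelled control and 0.129, 0.417 and 0.261 CPM in the knockout, a ratio of 984 (95% counting interval 661 to 1535; edgeR adjusted p = 4.84e-10); its exons overlap ELP5. EPCAM, the epithelial adhesion molecule, stood at 96.4, 109.8 and 98.2 and 0.517, 0.149 and 0.299 CPM, a ratio of 342 (95% counting interval 231 to 528; edgeR adjusted p = 1.15e-09). Each knockout library thus stood below 1 CPM for these 3 genes.

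Factors that keep the epithelial state were lower as well. ESRP1 and ESRP2, which set epithelial splicing, stood at 40.7 ± 8.704 and 47.3 ± 0.796 CPM in the labelled control and at 0.158 ± 0.0577 and 0.157 ± 0.0134 CPM in the knockout (SD, n = 3 each; edgeR adjusted p = 1.64e-09 and 3.18e-10). GRHL2, a transcription factor of epithelial junction genes, had 1591 counts in the labelled control and 3 in the knockout, a ratio of 656 (95% counting interval 224 to 3185; edgeR adjusted p = 2.92e-08). RAB25, an epithelial GTPase of membrane recycling, had 7311 and 3 counts, a ratio of 3015 (95% counting interval 1031 to 14625; edgeR adjusted p = 1.31e-09). The classical adhesion gene CDH1 fell less, from 70.8, 55.5 and 48.5 to 21.9, 21.8 and 28.1 CPM (log2 fold change -1.28 with SE 0.18, edgeR adjusted p = 8.37e-05). CLDN1 was the member that rose, from 13.98 ± 3.47 to 65.6 ± 22.7 CPM (SD, n = 3 each; log2 fold change 2.23 with SE 0.25, edgeR adjusted p = 9.63e-06), and ELF3, OCLN and TJP1 were among those that did not pass.

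Mesenchymal genes rose in 18 of 24 members tested and fell in 1, against 24.1% and 25.3% of all genes, with a median of 2.15. TAGLN, the actin-binding transgelin, stood at 8.67, 9.53 and 9.91 CPM in the labelled control and 328, 362 and 222 CPM in the knockout (log2 fold change 5.02 with SE 0.25, edgeR adjusted p = 7.80e-09), and exons of TAGLN overlap PCSK7. CCN1 and CCN2, matricellular proteins known as YAP targets, rose from 22.9 ± 1.397 and 12.2 ± 2.15 to 183 ± 13.6 and 81.7 ± 4.11 CPM (SD, n = 3 each; log2 fold change 2.996 and 2.74, edgeR adjusted p = 2.00e-09 and 1.08e-08). VIM, the gene of vimentin, stood at 255, 274 and 271 and 891, 880.4 and 863 CPM (log2 fold change 1.72 with SE 0.12, edgeR adjusted p = 1.36e-07), and fibronectin, FN1, at 85.1, 92.8 and 108 and 973, 963 and 1209.6 CPM (log2 fold change 3.46 with SE 0.199, edgeR adjusted p = 2.56e-08). Both groups were tight and far apart for these 2 genes. The transcription factors of this state moved unevenly: ZEB2 and SNAI2 rose with log2 fold changes of 2.899 and 3.299 from levels below 1 CPM, SNAI1 fell with -2.31, and TWIST1 and ZEB1 did not pass (edgeR adjusted p = 5.79e-04, 0.00223, 1.54e-05, 0.165 and 0.0566). The log2 fold change of ZEB2 was 2.23 without knockout replicate 3, and that of SNAI2 was 4.29 without control replicate 2. ZEB1 was called without control replicate 3 or knockout replicate 1 or 2 (edgeR adjusted p = 0.0404, 0.0475 and 0.0154).

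Collagen and laminin genes rose in 17 of 25 tested and fell in 6, against 24.1% and 25.3% of all genes, with a median of 1.77. All 6 collagen IV genes, which form the network of basement membranes, rose, among them COL4A1 from 17.3, 28.5 and 27.5 to 124, 117 and 134 CPM (log2 fold change 2.35 with SE 0.18, edgeR adjusted p = 3.45e-07), COL4A4 from 2.32, 3.06 and 2.73 to 16.3, 16.3 and 20.001 CPM (log2 fold change 2.69 with SE 0.198, edgeR adjusted p = 2.05e-07) and COL4A6 from 7.5995, 10.8 and 10.6 to 42.6, 39.8 and 41.6 CPM (log2 fold change 2.09 with SE 0.18, edgeR adjusted p = 1.03e-06). None of the 3 had overlapping groups. COL7A1, of anchoring fibrils, had a log2 fold change of 2.82 and LAMA5 of 1.77, whereas COL6A1 and COL6A2, of beaded filaments, fell with -0.88 and -1.48 (edgeR adjusted p = 8.20e-06, 1.77e-04, 0.00109 and 9.49e-05). COL1A1 did not pass (12.6 ± 2.73 and 14.4 ± 1.94 CPM, SD, n = 3 each; edgeR adjusted p = 0.385).

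Connexins form the gap junction channels through which small molecules, nucleotides included, pass between touching cells. Of 10 connexins and pannexins tested, 5 were lower and 2 higher in the knockout, against 25.3% and 24.1% of all genes. GJB2, the gene of connexin 26, stood at 18.5, 17.6 and 18.2 CPM in the labelled control and 0.862, 0.805 and 0.784 CPM in the knockout (log2 fold change -4.46 with SE 0.21, edgeR adjusted p = 4.46e-09). GJA3, of connexin 46, stood at 9.68, 10.9 and 9.21 and 1.55, 1.103 and 1.16 CPM (log2 fold change -2.97 with SE 0.23, edgeR adjusted p = 2.69e-07). Both fell without overlap between the groups. GJA1, of the widespread connexin 43, moved the other way, from 22.4, 24.5 and 25.4 to 54.2, 41.3 and 122 CPM (log2 fold change 1.59 with SE 0.35, edgeR adjusted p = 0.00222; 0.99 on the log2 scale without knockout replicate 3), and so did GJD3, from 2.77 ± 0.544 to 12.4 ± 2.27 CPM (SD, n = 3 each; log2 fold change 2.16 with SE 0.27, edgeR adjusted p = 2.78e-05). GJC1 fell with a log2 fold change of -1.18 (edgeR adjusted p = 3.02e-04), PANX1 did not pass (edgeR adjusted p = 0.926), and 5 of the 15 listed were too low to test.

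Genes of sterol and fatty acid synthesis, which the SREBP factors control, fell in 16 of 25 members and rose in 3. The shares over all genes were 25.3% and 24.1%, and the median of the list was -1.06. FASN, fatty acid synthase, stood at 2981, 3291 and 3532 CPM in the labelled control and 584, 632 and 437 CPM in the knockout (log2 fold change -2.57 with SE 0.2001, edgeR adjusted p = 3.85e-07). SCD, the desaturase of stearate, stood at 2083, 1907 and 1401 and 361, 363 and 484 CPM (log2 fold change -2.16 with SE 0.18, edgeR adjusted p = 7.99e-07). The groups did not overlap for either gene, and replicate 3 was the lowest knockout library for FASN and the highest for SCD. The factors themselves, SREBF1 and SREBF2, fell with log2 fold changes of -1.54 and -1.58, and the members that rose were SQLE, FADS1 and ACLY with 0.7002, 0.81 and 0.55 (edgeR adjusted p = 1.69e-05, 4.37e-06, 0.00689, 1.86e-04 and 0.00586).

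Of 18 SWI/SNF subunits, 12 were lower, SMARCA4 included, and 1 was higher, the alternative ATPase SMARCA2 (18.6 ± 2.18 to 34.9 ± 13.1 CPM, SD, n = 3 each; log2 fold change 0.91 with SE 0.25, edgeR adjusted p = 0.00785). Over all genes 25.3% were lower and 24.1% higher. SMARCD2 stood at 517, 476 and 564 and 167, 185 and 129 CPM (log2 fold change -1.69 with SE 0.2004, edgeR adjusted p = 1.59e-05) and the core subunit SMARCB1 at 211, 199 and 209 and 64.7, 77.9 and 51.6 CPM (log2 fold change -1.67 with SE 0.199, edgeR adjusted p = 1.63e-05). Both fell by much less than SMARCA4.

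Of 30 germline and cancer-testis genes, 24 were too low to test, 5 fell and 1 rose, while over all genes tested 25.3% fell and 24.1% rose. The median of the 6 tested was -7.77, or -5.64 with genes at 0 set to their bounds. MAGEB2 (chromosome X, 30215560 to 30220089), a melanoma antigen gene of the X chromosome, stood at 170.04, 149.5 and 132 CPM in the labelled control and had 0 counts in each knockout library, at least 1364-fold lower (adjusted p in edgeR = 8.27e-09). GTSF1 (chromosome 12, 54455950 to 54473602), of the piRNA pathway of germ cells, stood at 99.03, 77.1 and 69.01 CPM and likewise had 0 counts in each knockout library, at least 741-fold lower (adjusted p in edgeR = 1.81e-08). These genes thus marked every labelled control library and no knockout library. MAGEA3 fell from 107 ± 3.92 to 0.779 ± 0.194 CPM (SD, n = 3 each; edgeR adjusted p = 5.55e-10), and it is a near copy of MAGEA6, so its value is uncertain. PRAME, at 95.2 ± 14.3 and 133 ± 6.71 CPM (SD, n = 3 each), was the member that rose (log2 fold change 0.48 with SE 0.13, edgeR adjusted p = 0.00641).

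Lung lineage and surfactant genes were near the background, with 6 higher, 7 lower and 9 not called of 22 tested. NKX2-1, the lung lineage factor, was low in both groups, at 0.562 ± 0.119 and 0.103 ± 0.06399 CPM (SD, n = 3 each; log2 fold change -2.47 with SE 0.57, edgeR adjusted p = 0.00307). SOX2, a factor of proximal airway cells, stood at 8.55, 14.4 and 10.6 and 0.733, 0.477 and 1.01 CPM (log2 fold change -3.92 with SE 0.33, edgeR adjusted p = 7.60e-07), FOXA3 at 16.1, 15.001 and 19.8 and 0.819, 1.46 and 1.42 CPM (log2 fold change -3.77 with SE 0.35, edgeR adjusted p = 2.08e-06), and SOX9, of distal tips, at 92.3, 86.5 and 81.6 and 16.99, 16.3 and 18.5 CPM (log2 fold change -2.33 with SE 0.13, edgeR adjusted p = 2.03e-08). All 3 were lower in each knockout library than in each labelled control. FOXA1, FOXA2 and HNF4A, which A549 shares with gut and liver, were higher, with log2 fold changes of 1.56, 1.05 and 0.98 (edgeR adjusted p = 1.33e-05, 0.00174 and 2.17e-04). The surfactant protein genes SFTPA1, SFTPA2, SFTPB and SFTPC were too low to test.

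By fold alone, the largest falls among protein-coding genes with no overlap and at least 5 CPM in the higher group were in MAGEB2, GTSF1, MT1E, ST14, WNT3A, TMEM125, RAB25 and RAMP1. Of these, MT1E, WNT3A, TMEM125 and RAMP1 also had 0 counts in all 3 knockout libraries. MT1E, a metallothionein that binds zinc and copper, stood at 40.8, 40.4 and 37.7 CPM in the labelled control and fell at least 359.6-fold (edgeR adjusted p = 1.84e-09), with the reservation that metallothionein genes are near copies of each other. The signalling protein WNT3A, TMEM125 and RAMP1, which modifies the calcitonin receptor family, stood at 18.01 ± 5.49, 17.7 ± 0.276 and 13.9 ± 3.97 CPM (SD, n = 3 each) and were at least 163-fold, 160.1-fold and 126-fold lower. In all, 40 genes stood above 20 CPM in each labelled control and at least 100-fold lower in each knockout library, while 0 genes met the reverse rule. Among the 40, apart from list members, were PRDX2, a peroxiredoxin, at 339 and 0.452 CPM in the labelled control and the knockout, and the neurotensin receptor NTSR1 at 235 and 0.326 CPM; both were chosen after their values were seen.

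The largest rises by fold were NPPB, DLC1, ACKR3, UGT1A9, UGT1A7, KCNQ3, MAF and ADAMTS12, and each stood near 0 in the labelled control. NPPB, the gene of B-type natriuretic peptide, had 0 counts in each labelled control library and stood at 9.66, 12.6 and 6.72 CPM in the knockout, at least 69.9-fold higher (adjusted p in edgeR = 7.07e-07). ACKR3, a scavenging receptor for the chemokine CXCL12, had 3 counts in the labelled control and stood at 14.6, 14.7 and 13.2 CPM in the knockout, a ratio of 319.5 (95% counting interval 109 to 1552; edgeR adjusted p = 2.66e-08). Every knockout library held both transcripts at several CPM or more. DLC1, a GTPase-activating protein, the potassium channel gene KCNQ3, the transcription factor MAF and the metalloprotease ADAMTS12 had 2, 5, 5 and 7 counts in the labelled control and means of 15.98 ± 7.13, 9.04 ± 1.79, 8.98 ± 2.87 and 11.7 ± 2.21 CPM (SD, n = 3 each) in the knockout (edgeR adjusted p = 1.63e-07, 1.15e-06, 3.57e-07 and 6.81e-08).

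By CPM, among called genes with a symbol and no overlap, the largest gains after AKR1B1 were in IGFBP4, KRT7, FLNA and KRT81. IGFBP4, which binds insulin-like growth factors, stood at 1269, 1798 and 2570.4 and 7582, 8876 and 5413 CPM (log2 fold change 1.96 with SE 0.28, edgeR adjusted p = 7.93e-05). The keratin KRT7 stood at 1213, 1833 and 2403 and 6385, 7409 and 4396 CPM (log2 fold change 1.74 with SE 0.29, edgeR adjusted p = 2.43e-04), and FLNA, the actin cross-linker filamin A, at 2742, 3307 and 3924 and 8189, 8735 and 5512 CPM (log2 fold change 1.17 with SE 0.22, edgeR adjusted p = 6.17e-04). For IGFBP4, KRT7 and FLNA each knockout library lay above each labelled control. KRT81, a keratin with near-identical relatives, rose from 3078 ± 1149.6 to 7232 ± 2196 CPM (SD, n = 3 each; log2 fold change 1.23 with SE 0.32, edgeR adjusted p = 0.00579).

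The largest losses in CPM among called genes with a symbol and no overlap were in MT-RNR2, EEF2, RPS2, KRT8 and RPLP0. EEF2, the elongation factor of translation, stood at 6146, 5882 and 6779.9 and 2921, 3353 and 2036 CPM (log2 fold change -1.18 with SE 0.22, edgeR adjusted p = 7.16e-04). KRT8, a keratin of simple epithelia, stood at 5654, 5597 and 7156 and 3267, 3703 and 2364 CPM (log2 fold change -0.98 with SE 0.23, edgeR adjusted p = 0.00328); exon positions of KRT8 overlap those of KRT18 in the annotation. The ribosomal protein genes RPS2 and RPLP0 fell from 5825 ± 1129 and 5235 ± 396 to 2745 ± 759.7 and 2442 ± 547 CPM (SD, n = 3 each; edgeR adjusted p = 0.00585 and 0.00273), and both have processed copies elsewhere in the genome. MT-RNR2, the large ribosomal RNA of the mitochondrion, fell from 7952 ± 503 to 4379 ± 1616 CPM (SD, n = 3 each; log2 fold change -0.86 with SE 0.22, edgeR adjusted p = 0.00626).

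Many markers of other cell types were low, and others were expressed. Below 1 CPM in all 6 libraries were 9 of 15 leukocyte, 7 of 12 fibroblast and 9 of 12 endothelial markers. The fibroblast marker COL1A1, given above, was expressed in both groups. Of 15 leukocyte markers, 8 were too low to test, CD3E and MS4A1 had 0 counts in all 6 libraries, and PTPRC, which all leukocytes carry, stood at 0.0198 ± 0.0343 and 0.00994 ± 0.0172 CPM (SD, n = 3 each). Summed over the list, the level was 5.94 to 8.03 CPM in the labelled control and 13.1 to 16.5 CPM in the knockout. Of the 7 members tested, 5 were higher (3 without control replicate 3) and 1 was lower. Of 12 fibroblast markers, 6 were tested, and of these 2 were higher and 2 lower. DCN, LUM and PDGFRA were among those too low to test, and the sum was 86.8 to 115 and 65.97 to 91.6 CPM. Of 12 endothelial markers, 4 were tested, and of these 3 were lower and the other did not pass. CDH5, KDR and TEK were among those too low to test, and the sum was 114 to 200.1 and 75.4 to 129 CPM, most of it EGFL7. Of 10 epithelial markers, 7 were lower and 2 higher; the sums of 11562 to 15584 and 8777 to 14166 CPM, mostly keratins, overlapped between the groups. Over all genes tested, 24.1% were higher and 25.3% lower. The part of these markers in the results was not tested.

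Along the genome, medians of the log2 fold change varied between regions. In GRCh38 windows of 10 Mb with at least 20 genes tested, the lowest medians lay at 0 to 10 Mb of chromosome 19 (-0.86 over 254 genes) and at 10 to 20 Mb (-0.82 over 249 genes), the window that holds SMARCA4. The median GC content of transcripts there was 62.2% and 59.8%, and with offsets for GC content the medians were -0.64 and -0.65. The rest of chromosome 19 was not alike: its window at 30 to 40 Mb had a median of 0.45 over 158 genes. The highest medians lay at 10 to 20 Mb of chromosome 9 (1.10 over 20 genes), next to the window of the 9p21 genes, and at 20 to 30 Mb of chromosome 15 (0.92). Medians of whole chromosomes ran from -0.46 for chromosome 22 to 0.32 for chromosome 2.

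The same genotypes grown alone give a comparison that shares no library with this one. There 9485 genes were called, and 6454 genes were called in the same direction in both conditions, 44 in opposite directions, and 1778 in co-culture but not alone. Across genes, which are not independent replicates and share the dispersion estimate, the log2 fold changes of the 2 conditions had a Pearson correlation of 0.891. A test of the difference itself, the effect in co-culture minus the effect alone, called 301 genes (1.8%), 253 with a higher and 48 with a lower effect in co-culture. That number was 3623 without replicate 3 of the co-cultured knockout (1201 higher and 2422 lower), and with another of the 12 libraries left out it went down to 119, without control replicate 2 in co-culture. Libraries varied along GC content in each group, co-cultured knockout replicate 3 (-0.753) among them. The difference had a rank correlation of 0.535 with transcript GC content across genes. With offsets for GC content 1449 genes were called, among them 284 of the 301.

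In this difference the secreted inflammatory factors had 16 of 26 members higher in effect in co-culture, against 1.8% of all genes called in either direction. Their median log2 fold change was 0.008 alone and 1.995 in co-culture. CXCL8 stood at 74.4, 37.02 and 53.3 CPM in the labelled control alone, at 51.3, 53.1 and 52.6 CPM in the knockout alone, and at the values given above in co-culture. Its knockout libraries overlapped the labelled control alone and lay far above it in co-culture (difference 3.62, SE 0.297, edgeR adjusted p = 6.68e-05). CXCL1, CXCL2 and CXCL3 changed direction, with log2 fold changes of -1.02, -1.199 and -1.11 alone against 2.74, 1.96 and 2.03 in co-culture (edgeR adjusted p of the difference = 4.96e-06, 5.17e-05 and 1.22e-05). CXCL6 fell in both conditions, by less in co-culture (-5.51 and -1.11; difference 4.41, SE 0.71, edgeR adjusted p = 0.00729). IL6 and IL1B had differences of 2.57 and 3.24 (edgeR adjusted p = 0.0263 and 0.0362). CSF3, the growth factor of neutrophils, had the highest difference of the list, 7.01 (SE 0.82, edgeR adjusted p = 0.00104): its mean was 2.16 and 0.0406 CPM alone and 1.597 and 3.81 CPM in co-culture, in the labelled control and the knockout. The knockout alone stood near 0, so the size of this difference is uncertain. Without control replicate 1 in co-culture, the log2 fold change of CSF3 in co-culture was 0.897 and was not called (edgeR adjusted p = 0.0681).

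**Figure D5:**
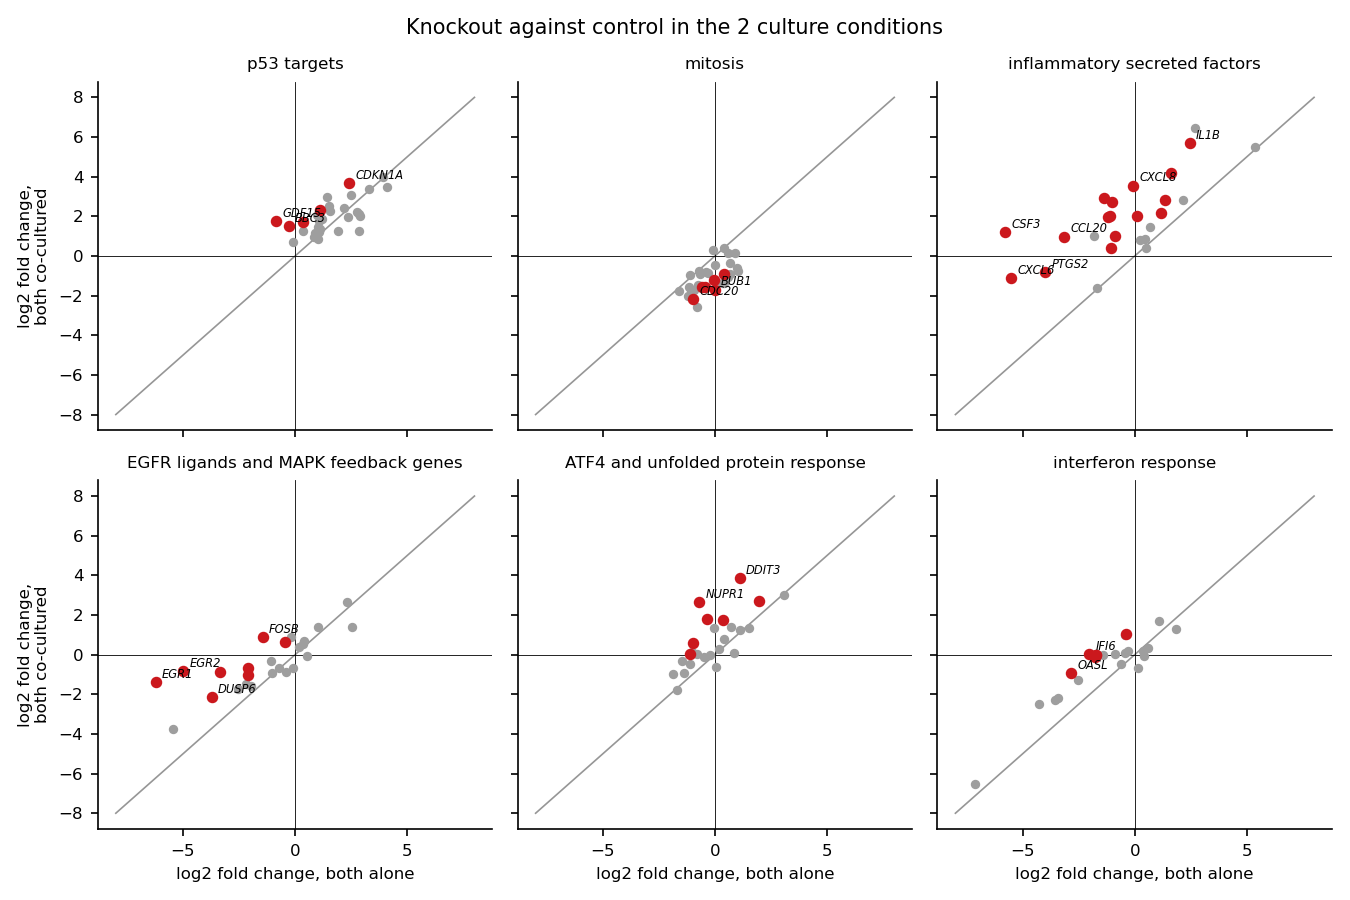
The log2 fold change of knockout against control in co-culture (y axis) over that alone (x axis) for the tested members of 6 lists; red points have an adjusted p of the difference under 0.05 and the grey diagonal marks equal effects. Most inflammatory factors lie above the diagonal, 16 of 26 of them red, and most mitotic genes below it.

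Among protein-coding genes with at least 5 CPM in a group, the highest differences were in COL5A3, CLEC4E, EGR1 and CSF2; the means of CSF3 and CXCL6 were below that level in each group. EGR1, an immediate early factor of MAPK signalling, stood at 56.1, 68.99 and 65.1 CPM in the labelled control alone and 0.677, 0.797 and 1.095 CPM in the knockout alone, against 63.2, 46.9 and 51.6 and 24.6, 18.8 and 19.2 CPM in co-culture (difference 4.86, SE 0.28, edgeR adjusted p = 4.78e-06). The knockout was lower in both conditions, and the gap was much smaller in co-culture. CSF2, the granulocyte and macrophage growth factor, stood at 0.3996 ± 0.241 and 0.146 ± 0.0954 CPM alone and at 0.952 ± 0.1996 and 7.32 ± 0.868 CPM in co-culture (SD, n = 3 each; difference 4.31, SE 0.63, edgeR adjusted p = 0.0039). CLEC4E, a lectin receptor of myeloid cells, and the collagen gene COL5A3 had differences of 5.04 and 5.08 and co-cultured means of 0.307 and 0.399 CPM in the labelled control and 8.89 and 5.87 CPM in the knockout (edgeR adjusted p = 0.00324 and 0.0225). The lowest differences were in PRTG, SLC4A8, NPTX1 and NEFL, at -2.02, -1.87, -1.81 and -1.77 (edgeR adjusted p = 0.0361, 0.0389, 0.00414 and 0.00191); PRTG, an adhesion protein of the immunoglobulin family, stood at 8.97 ± 1.63 CPM in the knockout alone and 4.82 ± 1.16 CPM in the co-cultured knockout, against 0.725 ± 0.312 and 1.56 ± 0.0811 CPM in the labelled controls (SD, n = 3 each).

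Other lists also differed between the conditions. Over all 16768 genes tested, 253 had a higher and 48 a lower effect in co-culture, 1.8% together. Of the EGFR and MAPK genes, 8 of 25 had a higher effect in co-culture, among them DUSP6, at -3.72 alone and -2.13 in co-culture, and FOSB, at -1.45 and 0.87 (edgeR adjusted p of the difference = 0.00398 and 0.00336). Of the ATF4 and unfolded protein genes, 7 of 25 had a higher effect, led by NUPR1 (-0.698 and 2.64; edgeR adjusted p of the difference = 0.00143) and DDIT3 (1.102 and 3.86; 4.91e-04). Of the interferon genes, 6 of 23 had a higher effect: IFI6 and MX1 fell alone, with log2 fold changes of -2.02 and -1.76, and did not pass in co-culture, with 0.013 and -0.14 (edgeR adjusted p of the difference = 0.015 and 0.024). When each library was left out in turn, these counts ran from 4 to 11 for the EGFR and MAPK genes, from 4 to 11 for the ATF4 genes and from 1 to 11 for the interferon genes. Each was highest without co-cultured knockout replicate 3 and lowest, alone or tied, without co-cultured knockout replicate 1. Over all genes the calls of a higher effect numbered 1201 without the former and 118 without the latter.

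The p53 targets and the mitotic genes differed in a few members each, beside 253 higher and 48 lower effects among all 16768 genes tested. Of the p53 targets, 5 of 30 had a higher effect in co-culture: CDKN1A (2.403 alone and 3.67 in co-culture), GDF15 (-0.86 and 1.76), BBC3 (-0.29 and 1.52), SESN2 (0.36 and 1.74) and BTG2 (1.11 and 2.32), with edgeR adjusted p of the difference = 0.0402, 0.00182, 0.011, 0.0162 and 0.00982. GDF15, a stress cytokine, stood at 144, 197 and 216 and 87.3, 98.6 and 122 CPM alone and at 120.05, 145 and 189 and 547, 626 and 363 CPM in co-culture, so the knockout was below the labelled control alone and above it in co-culture. Of the mitotic genes, 6 of 30 had a lower effect in co-culture, among them BUB1 (-0.008 and -1.69), CCNB1 (-0.032 and -1.203) and CDC20 (-0.96 and -2.18), with edgeR adjusted p of the difference = 0.046, 0.0112 and 0.0473. CCNB1, the cyclin that drives entry into mitosis, stood at 169 ± 10.5 and 165 ± 9.502 CPM alone and at 187 ± 36.97 and 81.3 ± 4.296 CPM in co-culture (SD, n = 3 each). In the co-cultured knockout, which the series text describes as proliferating again, these 6 mitotic transcripts were thus lower relative to the labelled control than in the knockout alone. With each library left out in turn, the p53 count ran from 3 to 12 and the mitotic count from 1 to 16. Both were highest without co-cultured knockout replicate 3, where the calls over all genes also rose to 1201 higher and 2422 lower. The number of p53 targets with a lower effect in co-culture, 0 with all libraries, was 4 without that library. TYMS itself was lower in effect in co-culture, at -2.19 alone and -3.08 in co-culture (difference -0.89, SE 0.15, edgeR adjusted p = 0.0107).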

How the data were processed

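RNA from cells labelled A549 was sequenced after library construction with the NEBNext Ultra kit, per the labels' protocols. The authors deposited 1 table of read counts per gene for 61541 Ensembl gene identifiers and 12 libraries. FastQC, STAR 2.7.9a, featureCounts, R 4.2.1, DESeq2 1.36.0 and the build GRCh38 (hg38) are named per the submitters' processing notes, without order or role, and the annotation and strand setting are not given in the sources used here. Reads of overlapping genes can then not be told apart, and apart from the overlaps given beside values, exons of BUB1B, PRC1, KIF2C, MDM2, XPC, IL6, SHMT1, SHMT2, SLC19A1, SREBF1, MCM2, MCM7, ESRP2, LAMA5, VIM and VLDLR share positions with another annotated gene.

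Columns were mapped to samples through their titles. Symbols and positions came from GENCODE 29 (58366 identifiers matched) and a table of gene names, which gave 43316 symbols. Genes were filtered by filterByExpr of edgeR 4.0.16 (R 4.3.3), leaving 16768. The quasi-likelihood test was fitted to the deposited counts of all 12 libraries with TMM scaling and 4 groups. The common biological coefficient of variation was 22.1%. P-values were adjusted over all genes by Benjamini-Hochberg, and a call is an adjusted p under 0.05. CPM used TMM-scaled library sizes, and folds against a group at 0 used a floor of 3 counts per library. Ratios carry 95% intervals that cover counting error only. The difference of effects is the interaction of genotype and culture. The script was tested on simulated data.

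Named genes are TYMS, the 9p21 genes, the 3 smallest p per list, and the 4 highest and 4 lowest differences of effect. Added to these are the 8 highest and 8 lowest log2 fold changes among called protein-coding genes without overlap and at least 5 CPM. The 5 largest CPM changes each way came from called genes with a symbol and without overlap. Other list members were named after their values were seen. Some genes the rule names are not reported here. The members and lists were chosen with earlier results of these data known. Alternatives were other scalings, no filter, 6 libraries only, a replicate block, offsets for GC content, a 2-fold threshold, DESeq2 1.42.0 and each library left out. Deviations of same-numbered co-cultured libraries correlated at -0.170, -0.215 and -0.523, so the numbers were not treated as pairs. Libraries grown alone were not compared in this way. Their GC correlations rose with the replicate number, at -0.615, 0.117 and 0.583 in the labelled control and -0.541, 0.0828 and 0.533 in the knockout. Those of the co-cultured control rose too, and those of the co-cultured knockout did not follow this order. Replicates differed by more than sampling noise, with a chi-square per gene of 15.3 to 117.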

Additional observations from a re-analysis of the deposited data

Results flagged for a closer look

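The knockout effect differed between co-culture and growth alone by the interaction test of edgeR in 301 genes (1.8% of those tested), TYMS included, whose log2 difference was -0.89. The values below are differences of log2 fold changes, co-culture minus alone, for genes with an adjusted p under 0.05 in that test. Among secreted inflammatory factors, they were 3.75 for CXCL1, 3.16 for CXCL2, 3.14 for CXCL3, 1.95 for CXCL5, 4.41 for CXCL6, 3.62 for CXCL8, 3.24 for IL1B, 2.57 for IL6, 1.51 for CCL2, 4.31 for CSF2, 7.01 for CSF3 and 3.17 for PTGS2. Among ATF4 and stress genes, they were 2.17 for ATF3, 2.76 for DDIT3, 3.34 for NUPR1, 0.73 for STC2 and 1.38 for SESN2. Among EGFR and MAPK genes, they were 1.09 for AREG, 1.59 for DUSP6, 4.86 for EGR1 and 2.32 for FOSB. Among interferon and class I genes, they were 2.03 for IFI6, 1.62 for MX1 and 0.85 for B2M. Among p53 targets, they were 1.81 for BBC3, 1.21 for BTG2, 1.26 for CDKN1A, 2.61 for GDF15 and 1.38 for SESN2. Among mitotic genes, they were -1.69 for BUB1, -1.17 for CCNB1, -1.21 for CDC20 and -1.01 for KIF20A. Outside these groups they were 1.47 for AKR1B1, 5.04 for CLEC4E, 5.08 for COL5A3, 3.36 for MAGEA3, -1.77 for NEFL, -1.81 for NPTX1, -2.02 for PRTG and -1.87 for SLC4A8. No explanation was tested, and the number of genes moves with the library left out and with GC content, as given with the dependence on processing.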

How the results depend on the processing

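The 8276 genes called in co-culture stayed between 7010 and 10462 under the other scalings, without a filter, with the 6 co-cultured libraries only, with GC offsets and with DESeq2, and between 7145 and 8892 with each library left out. Requiring more than a 2-fold change left 2938. The TYMS log2 fold change kept its sign and call under every alternative run, from -3.13 to -3.06 with each library left out. The 301 differences of effect depended far more on the processing. They numbered 1342 without a filter, 1449 with GC offsets, 878 with DESeq2, 43 with a 2-fold threshold, and 119 to 3623 with each library left out, the last without co-cultured knockout replicate 3. The replicate block, whose numbers share no stated pairing, gave 7781 calls in co-culture and 179 differences, or 898 differences together with GC offsets. The cause of these shifts was not tested. Medians of lists kept their sign apart from the fibroblast markers, at 0.25 instead of -0.27 with the 6 co-cultured libraries only, and the interferon list, whose median lay near 0, changed sign under several alternatives and ran from -0.12 to 0.0663 with each library left out. Genes that were not called changed sign near 0: PANX1 was -0.0184 with GC offsets and -0.00783 with GC offsets and the block, and RRM2 was 0.0140 without a filter. With each library left out, log2 fold changes ran from -0.0996 to 0.0763 for ATF4, -0.2174 to 0.2234 for IFI6, -0.2769 to 0.0252 for MX1, -0.1567 to 0.1274 for PANX1, -0.6066 to 0.0179 for RRM1, -0.1707 to 0.0110 for RRM2 and -0.1979 to 0.3238 for SLC4A8. Some genes given above as not passing were called under other settings. With GC offsets ZEB1, HSPA5 and COL1A1 were higher (edgeR adjusted p = 0.0139, 0.0124 and 0.00908). PTGS2, AURKA, TOP2A and SLC29A1 were lower there (edgeR adjusted p = 4.87e-04, 0.00671, 7.03e-04 and 0.0229). With DESeq2, PTGS2, ZEB1 and HSPA5 were called and DTYMK was not (DESeq2 adjusted p = 0.0276, 0.0197, 0.038 and 0.0787). Genes near 0 counts in a group are limited by depth, and 3 libraries a group limit every error given.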
